A study of Mus musculus with 6 samples.

Results

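The enzymes that place and remove ubiquitin on histone H2B were examined through the H3K27ac peaks at their genes. The 7 genes, Rnf20, Rnf40, Wac, Ube2a, Ube2b, Usp22 and Usp44, were chosen with earlier results of these data known. They are among 21853 protein-coding genes with an annotated transcription start site (TSS). The data are ChIP-seq of H3K27ac, an acetylation of histone H3 found at active promoters and enhancers, in mouse embryonic stem cells (mESCs). The cells were of the E14Tg2A line with the Rosa26-Cre and Oct4-IRES-Puro alleles, which all groups carry, and grew without serum in N2B27 medium with LIF and the inhibitors PD0325901 and CT-99021. Control cells were given DMSO. A 2 h exposure to 100 nM NVP-2, which inhibits the elongation kinase CDK9, made up the next group. The last group was exposed as long to actinomycin D (ActD), a blocker of RNA polymerases, at a dose that the treatment label gives as 800 nM and the protocols as 1 µg/ml. Each of these groups had 2 replicates, with human HEK293T chromatin as spike-in. The only values used here are the positions of 22973 peaks that the authors called in control cells with both replicates pooled. They have no height, no depth and no replicate error, so every value below is a description without a test, and treated cells were not analysed here.

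H2B is ubiquitylated at lysine 120 while RNA polymerase II transcribes. UBE2A and UBE2B, the mammalian homologues of yeast Rad6, are the conjugating enzymes (E2). RNF20 and RNF40 form the heterodimeric ligase (E3) that selects the H2B tail, and WAC is an adaptor that links this ligase to the elongating polymerase. USP22 is the catalytic subunit of the deubiquitinase module of the SAGA coactivator complex, and USP44 is another H2B deubiquitinase, studied in the differentiation of embryonic stem cells. An H3K27ac peak marks chromatin at a gene and does not measure the amount of its RNA or protein.

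H3K27ac marked the promoters of all 7 genes, with 1 promoter peak at each. A promoter was counted as marked when a peak overlapped, by at least 1 bp, the 1 kb on either side of the TSS of any protein-coding isoform (GENCODE release M21). By the same rule 51.0% of all protein-coding genes were marked (95% Wilson interval 50.4 to 51.7%, counting error only). The peaks differed widely in extent. That at Ube2a spanned 7198 bp, that at Ube2b 5871 bp, that at Wac 3004 bp, that at Rnf40 1693 bp, that at Rnf20 1512 bp, that at Usp22 1016 bp and that at Usp44 623 bp. The conjugating enzymes thus had the widest and the deubiquitinases the narrowest promoter peaks of the 7. The median width of the 10223 peaks that overlapped a protein-coding promoter was 2066 bp, with quartiles at 1486 and 4507 bp, so the peaks of Ube2a and Ube2b lay above the upper quartile and those of Usp22 and Usp44 below the lower one. Those of Rnf20, Rnf40 and Wac lay between the quartiles.

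**Figure D1:**
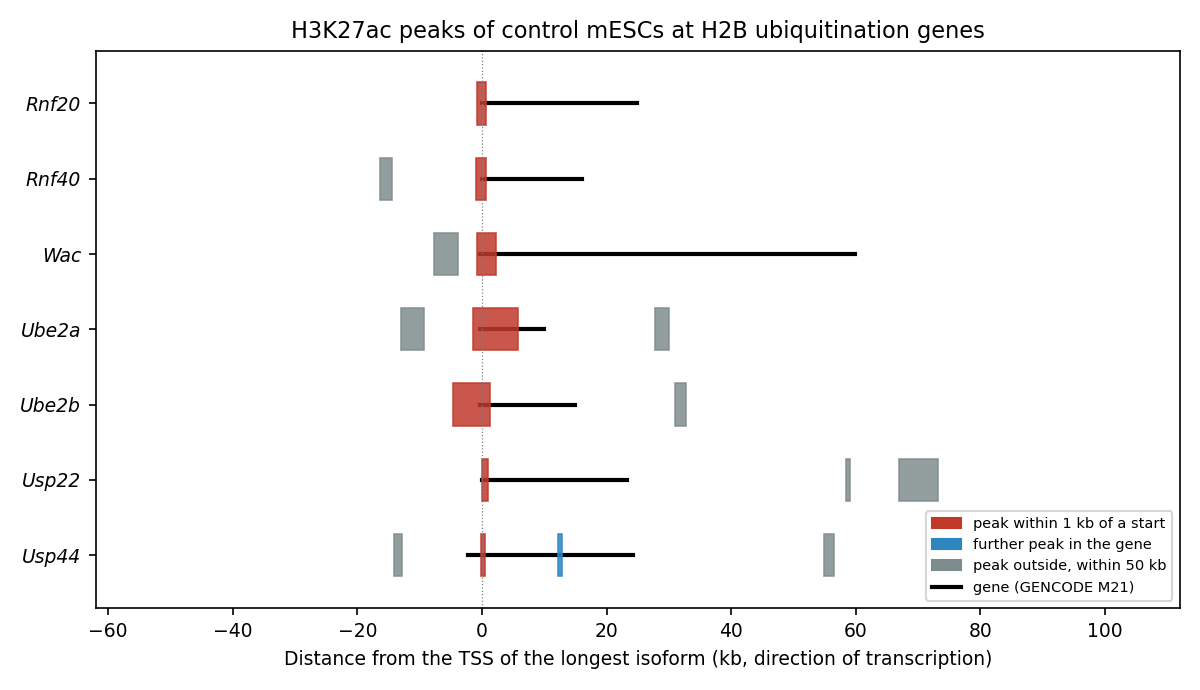
Peaks of control mESCs (boxes, to scale) at the 7 genes (black lines), plotted as kb from the TSS of the longest isoform in the direction of transcription. Each gene has 1 promoter peak in red, Usp44 alone has a further peak inside the gene in blue, and 9 peaks in grey lie outside 6 of the genes within 50 kb.

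The E2 genes were compared first. Ube2a (ENSMUSG00000016308.12) lies on the plus strand of chromosome X of mm10 from 36873900 to 36884222, and its peak from 36872832 to 36880029 covered 59.4% of the gene. The peak began 1.46 kb upstream of the TSS of the longest isoform and ended 5.73 kb downstream of it, over exons 1 to 3 of 6 and over the start codon. It was wider than 85.2% of the coding promoter peaks of all chromosomes. Promoter peaks on the X chromosome were wider as a group, with a median of 5633 bp over 275 peaks, and the Ube2a peak was wider than 57.5% of these. All 6 distinct coding starts of the gene lay inside it.

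Ube2b (ENSMUSG00000020390.12) spans 51985497 to 52000762 on chromosome 11 and is read from the minus strand. Its peak from 51999249 to 52005119 was wider than 81.1% of coding promoter peaks, but was placed the other way around the start. It reached 4.64 kb upstream of the TSS of the longest isoform and 1.24 kb downstream, whereas at Ube2a 79.7% of the peak lay downstream. Among 9663 coding genes whose longest isoform starts inside a peak, the median share downstream was 59.4%, with quartiles at 43.3 and 76.1%. The share at Ube2b was below the lower quartile and exceeded that of 7.31% of these genes, and the share at Ube2a was above the upper quartile. This placement depends on the start used. From the RefSeq start of Ube2b at 52004145 the peak reached 0.974 kb upstream and 4.90 kb downstream, with 83.4% of it downstream, a comparison added after the values had been seen.

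Both E2 peaks also covered the start of a coding gene that runs the opposite way. At Ube2a this was C330007P06Rik, whose nearest start lay 184 bp away. At Ube2b it was Cdkl3, a kinase gene of the CDKL family. Its nearest start lay 3459 bp from the closest GENCODE start of Ube2b and 3737 bp from that of the longest isoform. The RefSeq start of Ube2b at 52004145 lay 76 bp from the Cdkl3 start. The peak of Rnf40 covered the start of Ccdc189, 172 bp from its own. In all, the promoter peaks of 3 of the 7 genes overlapped the 1 kb on either side of a start of another coding gene. Of the 11149 marked coding genes 27.2% had such a peak, and with 7 genes no difference is drawn from this. For these 3 genes, the peak cannot be assigned to one gene of the pair from its position.

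The sequence between the divergent starts of Ube2a and C330007P06Rik is shown since both starts lie inside that shared peak, and it is followed by the stretches that precede the downstream starts of Ube2b and Rnf40, which lie inside their promoter peaks. The last sequence precedes a RefSeq start inside Rnf20 that has no peak and is shown for contrast. Like the Ube2b and Rnf40 stretches it lies within the gene between exons, and whether it acts as a promoter was not tested. Sequences are from RefSeq (GRCm38.p6), 5′ to 3′ on the strand of the named gene, without exons of messenger RNAs. Capitals mark matches to the promoter motifs described further on.
Ube2a, chrX:36874112-36874294, plus strand: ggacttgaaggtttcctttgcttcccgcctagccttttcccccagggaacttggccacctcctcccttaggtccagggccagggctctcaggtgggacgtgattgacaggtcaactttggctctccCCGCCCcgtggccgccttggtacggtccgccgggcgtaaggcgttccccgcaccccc
Ube2b, chr11:52000492-52000676, minus strand: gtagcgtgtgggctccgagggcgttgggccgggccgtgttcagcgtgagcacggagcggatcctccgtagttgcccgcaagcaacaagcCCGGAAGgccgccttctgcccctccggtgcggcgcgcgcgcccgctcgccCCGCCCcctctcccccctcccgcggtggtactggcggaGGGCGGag
Rnf40, chr7:127588812-127588918, plus strand: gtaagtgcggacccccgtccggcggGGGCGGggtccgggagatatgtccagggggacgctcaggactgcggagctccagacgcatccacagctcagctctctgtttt
Rnf20, chr4:49638375-49638624, plus strand: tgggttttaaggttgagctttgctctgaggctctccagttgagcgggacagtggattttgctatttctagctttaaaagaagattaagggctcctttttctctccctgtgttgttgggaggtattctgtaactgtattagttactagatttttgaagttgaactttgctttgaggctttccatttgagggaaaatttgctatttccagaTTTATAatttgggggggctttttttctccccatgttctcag

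The 3 stretches inside peaks differed in base composition from the unmarked one. The Ube2b stretch of 185 bases held 25 CpG dinucleotides at a GC content of 75.1%, the Ube2a stretch of 183 bases held 11 at 65.0%, and the Rnf40 stretch of 107 bases held 9 at 66.4%. The stretch of 250 bases before the inner start of Rnf20 held 1 CpG at a GC content of 40.0%.

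The ligase genes had promoter peaks of similar width. Rnf20 (ENSMUSG00000028309.14) lies on the plus strand of chromosome 4 from 49632006 to 49656887, and its peak ran from 49631248 to 49632759. Rnf40 (ENSMUSG00000030816.8) lies on the plus strand of chromosome 7 from 127588767 to 127604799, and its peak ran from 127587753 to 127589445. They were wider than 25.8% and 32.5% of coding promoter peaks. Of the length of the peak, 46.3% lay downstream of the TSS at Rnf20 and 40.1% at Rnf40, the latter below the lower quartile of 43.3%. The Rnf40 peak touched exons 1 and 2 of 20 and held the start codon, whereas the Rnf20 peak touched exon 1 of 20 and ended before the start codon. RefSeq gives Rnf20 further starts inside the gene at 49638625 and 49638925, and these lay 5866 and 6166 bp from the peak.

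The surroundings of the ligase genes differed. No peak other than its own lay inside Rnf20 or within 50 kb of it. The gap to the next peak was 109.6 kb upstream and 2235 kb downstream, where the list had its next peak at 51868097. Of the 22952 gaps between neighbouring peaks 99 were longer than the downstream one, and the median gap was 26.7 kb. The coding genes wholly inside that gap were Grin3a, an NMDA receptor subunit gene, Ppp3r2, a calcineurin subunit gene, and Cylc2, none of which had a peak. Rnf40 had a peak of 1913 bp at the promoter of Phkg2, with a gap of 13.4 kb between that peak and its own, and the next peak downstream followed after 85.9 kb.

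Wac (ENSMUSG00000024283.15) lies on the plus strand of chromosome 18 from 7868832 to 7929028 and is the longest of the 7 genes with 60197 bp. Its promoter peak, from 7868432 to 7871435, was wider than 63.3% of coding promoter peaks and held 11 of its 14 distinct coding starts. Another start at 7871712 lay 277 bp beyond the peak and within the promoter window, and the remaining starts at 7905475 and 7910619 lay 34040 and 39184 bp from the nearest peak. A wider peak of 3817 bp, from 7861517 to 7865333, lay 3.10 kb upstream of the promoter peak and overlapped no protein-coding gene. Gaps between neighbouring peaks were shorter than this in 6.54% of cases, and the list holds no gap of 2 kb or less since the authors merged such peaks. Downstream the gap was 264.8 kb.

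**Figure D2:**
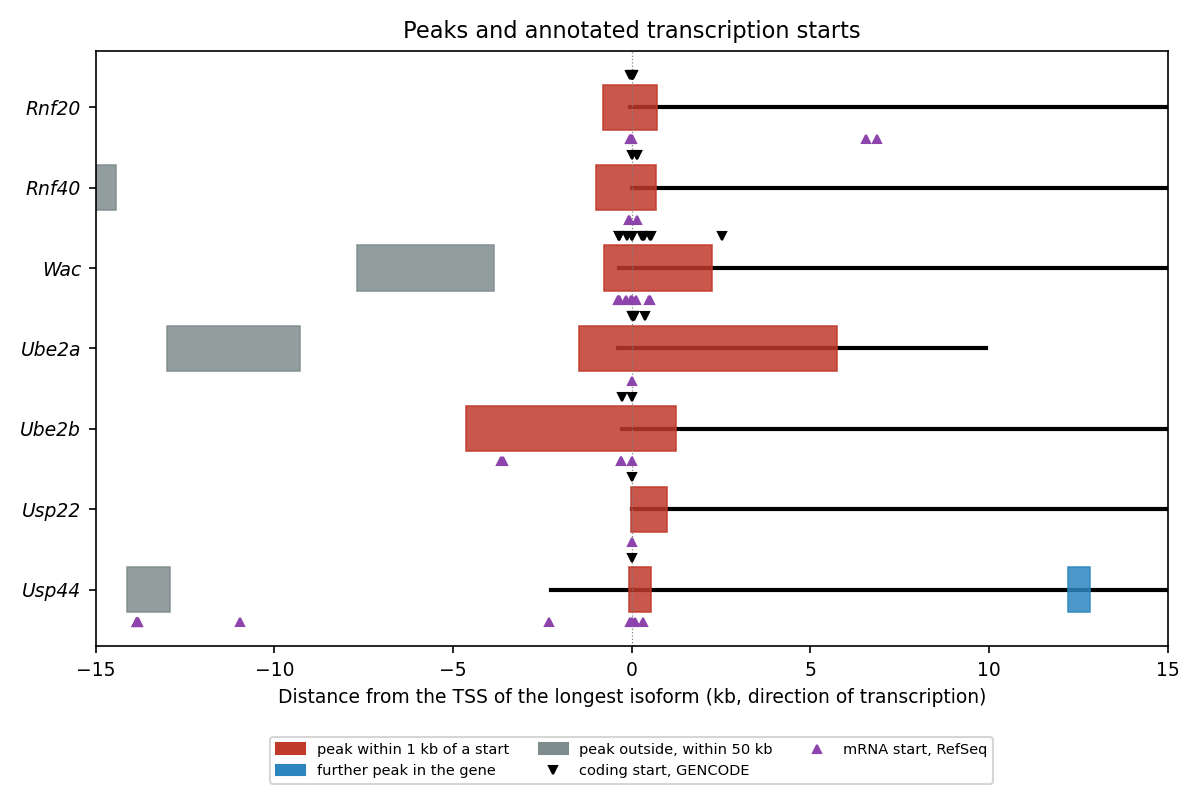
Peaks within 15 kb of the TSS of the longest isoform, in kb along the direction of transcription, with GENCODE coding starts as black triangles above and RefSeq messenger RNA starts as purple triangles below each gene. The Usp22 peak begins at its start, the Ube2b peak extends upstream over a second group of RefSeq starts, and the grey peak upstream of Usp44 lies over RefSeq starts that GENCODE lacks.

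The deubiquitinase genes had narrow peaks that lay mostly downstream of the start. Usp22 (ENSMUSG00000042506.15) spans 61151785 to 61175055 on chromosome 11, minus strand, and its peak from 61174056 to 61175071 reached 16 bp upstream of the TSS and 999 bp downstream. The share downstream, 98.4%, was higher than that of 98.4% of the 9663 genes with a start inside a peak, and 3.10% of these genes had at most 50 bp of the peak upstream. The Usp22 peak held the start codon, and was wider than 12.4% of coding promoter peaks. Peaks of 578 bp and 6367 bp lay 35.2 and 43.6 kb beyond the 3′ end of the gene, where they overlapped no promoter and no coding gene. The gap upstream of the promoter peak was 86.9 kb.

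Usp44 (ENSMUSG00000020020.8) lies on the plus strand of chromosome 10 from 93831555 to 93858088 and had the narrowest promoter peak by GENCODE starts, from 93833731 to 93834353, wider than 4.48% of coding promoter peaks. It reached 87 bp upstream and 535 bp downstream of the coding start at 93833818. Usp44 was also the only gene of the 7 with a further peak inside the gene, against 19.3% of all coding genes. This peak spanned 596 bp, from 93846035 to 93846630, and lay wholly in the coding part of exon 2 of 6, an exon of 1504 bp, beginning 345 bp after the start codon. The other start that GENCODE gives, at 93831555 for a processed transcript, lay 2176 bp from the nearest peak.

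A peak of 1218 bp from 93819686 to 93820903 lay 10.7 kb upstream of Usp44 as GENCODE draws the gene. RefSeq draws Usp44 from 93819969 over 39.5 kb, and this comparison was added after the values had been seen. Of its 13 distinct RefSeq starts, 7 lay in the upstream peak, 4 in the peak at the GENCODE coding start, 13.8 kb further on, and 2 in no peak. By RefSeq the gene therefore had promoter peaks at both places, and the upstream peak was not a flanking one. The wider of these, 1218 bp, exceeded the 1016 bp at Usp22, so the order of the deubiquitinase genes by widest peak turned with the annotation. RefSeq starts of Ube2b at 52004090 and 52004145 likewise lay in the upstream part of the Ube2b peak, near the start of Cdkl3. With RefSeq starts all 7 genes remained marked, and 51.3% of 21774 RefSeq coding genes were marked.

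Within 50 kb outside the genes, 6 of the 7 had a peak, as had 67.5% of all coding genes. The number was 2 each at Ube2a, Usp22 and Usp44, 1 each at Rnf40, Ube2b and Wac, and 0 at Rnf20, with a median of 1 over all coding genes. Of the 9 peaks, 5 lay at promoters of coding neighbours, namely Phkg2 near Rnf40, Cdkn2aipnl near Ube2b, Nkrf and a further start of C330007P06Rik near Ube2a, and Metap2, a methionine aminopeptidase gene, near Usp44. The others were the peak upstream of Wac, both peaks beyond Usp22 and the peak over the RefSeq starts of Usp44. In those at coding promoters the ratio of observed to expected CpG was 0.38 to 0.77, in the peak upstream of Wac it was 0.20, in the pair beyond Usp22 it was 0.26 and 0.21, and in the peak over the RefSeq starts of Usp44 it was 0.42.

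The promoters of the 7 genes were rich in CpG dinucleotides, a sequence feature that the choice of genes did not use. Within 1 kb of the TSS of the longest isoform, the ratio of observed to expected CpG was 0.61 at Ube2b, 0.67 at Ube2a, 0.68 at Rnf40, 0.69 at Rnf20, 0.70 at Usp22, 0.86 at Usp44 and 0.99 at Wac. All were above the median of coding genes, 0.48. The median was 0.63 for coding genes with a promoter peak and 0.23 for those without, and Ube2b alone of the 7 lay below the former. The GC content was lowest at Rnf20 with 49.4% and highest at Wac with 65.0%, and the median of coding genes was 51.4%. Wac was above 99.6% of coding genes in the CpG ratio and Usp44, with its narrow peak, was above 95.8%. At the upstream RefSeq start of Usp44 the ratio was 0.38, higher than in 41.2% of coding genes. Neither had the widest promoter peak of the 7. The order changed with the window: from 250 bases before to 50 bases after the TSS, the ratio was 0.96 at Ube2b and lowest at Ube2a with 0.66, and that of Usp44, 0.79, was higher than in 72.4% of coding genes.

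**Figure D3:**
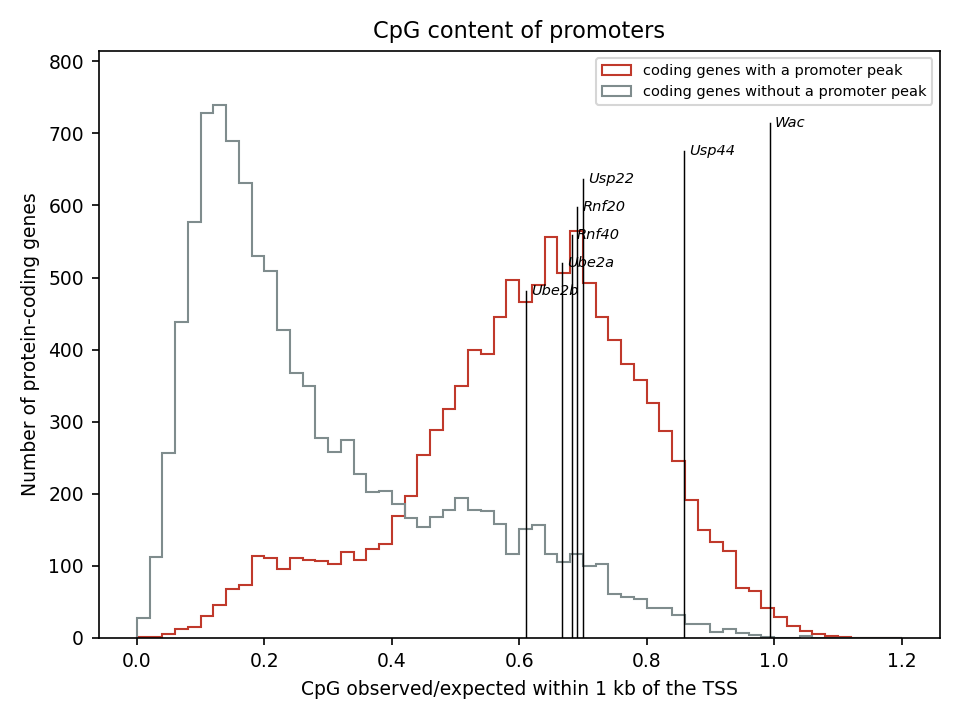
Distribution of the observed to expected CpG ratio within 1 kb of the TSS (x axis) over protein-coding genes (y axis, number of genes per bin), with a promoter peak in red and without in grey. Vertical lines give the 7 genes, which lie from 0.61 at Ube2b to 0.99 at Wac; their heights only separate the labels.

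Short motifs of core promoters were counted on both strands from 250 bases before to 50 bases after the TSS of the longest isoform. None of these motifs contains another. GGGCGG, the GC box, was found at 6 of the 7 genes, all but Rnf40, and at 45.0% of coding promoters. In the sequences printed above it appears at Ube2a and, on both strands, at Ube2b, and also before the downstream start of Rnf40, outside the window searched here. CCGGAAG, a core that ETS factors bind, was found at Ube2b and Wac and at 11.2% of coding promoters, and CCAAT was found at Rnf40 and Usp22 and at 38.7%. AAGATGG, part of the YY1 motif, was found at Rnf40 and at 6.26% of coding promoters. No match to TATAAA, the TATA box, was found in this window at the 7 genes, against 12.4% of coding promoters. The printed sequence before the inner RefSeq start of Rnf20, outside the window, holds a match to it on the opposite strand. The E-box CACGTG, held by 7.74%, had no match at the 7 either. The same was the case for GCATGCG, part of the NRF1 motif, which 4.64% held. A match is a run of letters and not a site at which binding was measured.

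The genes that work with these enzymes were listed by role, 40 in 7 lists. All 40 had a marked promoter by the same rule, against 51.0% of all coding genes. The lists were chosen with earlier results of these data known, so this count describes them and does not set the pathway apart. Of their promoters, 24 had a peak wider than the coding median of 2066 bp, against 3 of the 7 enzyme genes. That median counts each peak once, whereas these counts take the widest peak per gene. The share of all marked coding genes by their widest peak was not computed. The median of the widest promoter peak per gene was 3798 bp in the 40 genes and 1693 bp in the 7. Further peaks inside the gene were found at 14 of the 40, against 19.3% of all coding genes, and peaks within 50 kb outside at 35, against 67.5%. These shares include 10704 coding genes without a promoter peak, whereas all 40 were marked, and shares over marked genes alone were not computed.

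**Figure D4:**
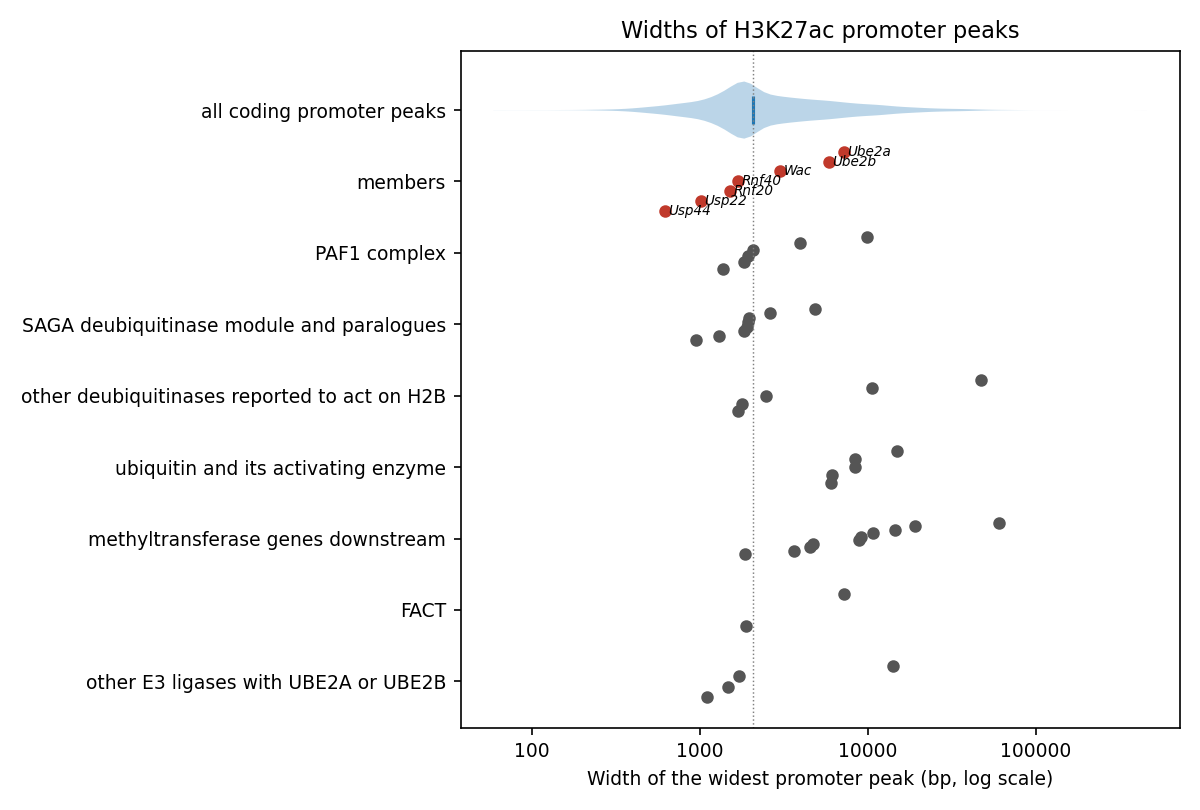
Width of the widest promoter peak of each gene in bp on a log scale, with the 7 enzyme genes in red and the lists of associated genes in grey. The violin gives all 10223 peaks at coding promoters, and the dotted line their median of 2066 bp; by GENCODE starts Usp44 and Usp22 lie lowest among the 7, and Ube2a and Ube2b highest.

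The PAF1 complex, which travels with the polymerase and is needed for H2B ubiquitylation, was marked at all 6 genes, from 1375 bp at Ctr9 to 9909 bp at Leo1. The SAGA deubiquitinase module and its paralogues, with Atxn7, Atxn7l3 and Eny2 as partners of Usp22, were marked at all 8 genes and ranged from 946 bp at Atxn7l3b to 4891 bp at Atxn7l3. Of these, Usp27x and Usp51 encode deubiquitinases related to USP22, and their peaks spanned 1920 and 1927 bp. Both genes lie on the X chromosome, where the median was 5633 bp, and Usp22, with 1016 bp, does not. Atxn7 had 2 promoter peaks, of which the wider measured 1953 bp. Other deubiquitinases reported to act on H2B were marked at all 5 genes, from 1679 bp at Usp3 to 47209 bp at Usp7. Usp7 had 2 promoter peaks and Usp49 had 3, whereas each of the 7 enzyme genes had 1 by GENCODE starts, and Usp44 had peaks at 2 places by RefSeq starts.

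Among the genes that supply ubiquitin, Ubb had a promoter peak of 6065 bp and Rps27a one of 8386 bp. Uba1, whose product activates ubiquitin for conjugation, lies on the X chromosome and had one of 15024 bp, so that these peaks were all wider than the coding median. Genes of the H3K79 methyltransferase and of H3K4 methyltransferase complexes that act downstream of ubiquitylated H2B, among them Dot1l, Setd1a and Setd1b, were marked at all 10 promoters. Of these, 9 were wider than the coding median, and the range was from 1866 bp at Dpy30 to 60959 bp at Hcfc1 on the X chromosome. The histone chaperone FACT, which works with ubiquitylated H2B during elongation, had peaks of 7194 bp at Supt16 and 1878 bp at Ssrp1. Ligases that work with UBE2A or UBE2B on other substrates were marked at all 4 genes, from 1111 bp at Rad18, the partner in DNA damage tolerance, to 14117 bp at Huwe1, also on the X chromosome.

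The labelled cell type was checked with marker genes by the same promoter rule. The mESC markers were marked at 8 of 8 genes, with widest peaks of 17768 to 71785 bp. Markers of trophoblast, primitive endoderm, neural, fibroblast, blood and liver cells were marked at 5 of 17, and all coding genes at 51.0%. By type the counts were 2 of 4 for primitive endoderm, 1 of 3 each for trophoblast, neural and fibroblast, and 0 of 2 each for blood and liver. The 5 marked genes were Eomes, Gata4, Gata6, Sox1 and Twist1, with peaks of 476 to 3136 bp. Cdx2, Elf5, Sox7, Sox17, Pax6, Neurod1, Col1a1, Col1a2, Gata1, Ptprc, Alb and Afp had none.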

How the data were processed

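H3K27ac ChIP-seq was analysed from a deposited list of peak positions in bp on mm10, in which the authors pooled both control replicates. Per the study's methods, reads were mapped to a joint reference of mouse (mm10) and human sequence by bwa meme, duplicates and poorly mapped reads were removed (Picard 2.9.1 and SAMtools 1.4 per the submitters' processing notes), peaks were called with LanceOtron, peaks within 2 kb were merged, and peaks of low height or away from ATAC-seq summits were dropped. The deposited list gives no height, score or count, so a promoter without a listed peak may have failed a threshold. Groups were taken from the sample labels.

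Positions were compared with GENCODE M21 and RefSeq annotation of GRCm38, and no peak passed the end of its chromosome. Promoters were 1 kb either side of each start of transcripts of the type protein_coding or lincRNA. Further peaks overlapping the gene were gene body peaks, and remaining peaks within 50 kb of its ends were flanking peaks. The minimum overlap was 1 bp. Percentiles give the share of peaks or genes with a lower value. The RefSeq promoter table held sequences for 4 of the 7 genes, Rnf20, Rnf40, Ube2a and Ube2b, and none for Wac, Usp22 and Usp44. No protein sequences were compared.

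The 7 genes and all lists were chosen with earlier results of these data known. Some list genes are not reported here by name. The 7 genes, pathway genes at the ends of a range or unmarked, and neighbours with a peak were named by rule. Other genes, RefSeq starts and the peak-free gap beyond Rnf20 were named after their values had been seen. Alternatives were other windows, isoforms, overlaps, peak widths, gene spans and distances. Functions were tested on simulated peaks. Python 3.11.15 was used with numpy 2.4.6, scipy 1.17.1 and matplotlib 3.10.9.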

Additional observations from a re-analysis of the deposited data

How the results depend on the processing

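All 7 promoters remained marked with windows of 500 bp or 2 kb on either side, with a peak required to cover the TSS, with the longest isoform only, with transcripts of any type, with an overlap of at least 500 bp and, added after the data were seen, with RefSeq starts. With peaks at least 1 kb wide 6 were marked, since Usp44 has a peak of 623 bp. The share of all coding genes was 45.6% under that setting and 47.7 to 51.9% under the others. Of the 40 associated genes, 39 were marked with the longest isoform only, without Dpy30, and 39 with peaks at least 1 kb wide, without Atxn7l3b. The number of genes with a further peak inside, 1, became 2 when the peak midpoint had to lie in the gene and outside the windows, since the midpoint of the Ube2a promoter peak then counts. The share of all coding genes under that rule was not computed. Within 10 kb, 2 of the 7 genes and 30.4% of all coding genes had a flanking peak, with 2 peaks in all at the 7. Within 100 kb the 9 flanking peaks became 16, at 6 of the 7 genes and not at Rnf20, and 79.0% of all coding genes had one. Within 50 kb of any TSS instead of the gene ends, 5 of the 7 genes had 6 flanking peaks. Those of Usp22 and the Metap2 peak near Usp44 dropped out, and the share of all coding genes was 60.7%. The median GC content of the 7 promoters, 56.9%, was 67.0% from 250 bases before to 50 bases after the TSS; the cause was not tested. No paired analysis was possible because the list pools both control replicates and no value comes from a fit. Nor could a replicate be omitted, and the spread between replicates, the depth behind each peak and any effect of NVP-2 or ActD cannot be read from these positions.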
